A study of Picea abies with 36 samples.

Results

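The response of the Norway spruce (Picea abies) hypocotyl, the stem below the cotyledons, to the synthetic cytokinin 6-benzylaminopurine (BAP) was described 10 days after treatment. It rests on 6 of the 36 RNA-seq libraries of the series, 3 from BAP-treated and 3 from mock-treated seedlings, taken by their labels, and on all genes of the count table. The seedlings were of genotype WT and 2 weeks old when about 20 µl of hormone in 70% ethanol, mixed into lanolin, was put on 8 to 10 mm of the middle hypocotyl, about 1.5 cm below the needles. The paper gives the genotype of the hormone-treated seedlings as TreO Söregärde and that of its graft libraries as Skogsgård. The labels put BAP at 135 mM. Because the unit is µM in one legend of the paper, the true dose is not certain, nor is the length of stem harvested, for which the paper has more than one value. The mock group had no hormone in its paste, according to the labels. The other groups were IAA (indole-3-acetic acid, an auxin, 50 mM) and BAP+IAA, and all treatments were sampled on days 5, 10 and 15. Each library pooled several plants, so a library is a mean over seedlings.

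Cytokinins are adenine-derived hormones that are sensed by histidine kinases and relayed to response regulators, of which the type-A members rise early and dampen the signal in Arabidopsis. Cytokinin levels are kept down by cytokinin dehydrogenases, which cleave the hormone, and raised by LOG enzymes, which release the active base. In the stem, cytokinin is known for its part in cell division and in the vascular cambium, the layer that gives rise to xylem and phloem, whereas laccases and class III peroxidases polymerize lignin in the walls of xylem cells.

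Total counts lay between 13498037 and 17384705 in the BAP libraries and between 13529521 and 18779636 in the mock libraries, and 38732 of 70736 genes passed the filter on low counts and were tested. Libraries were set against each other by the root mean square of their log2 CPM differences, which for any BAP with any mock library was 0.960 to 1.15, against 0.651 to 0.715 among BAP libraries and 0.560 to 0.730 among mock libraries. CPM denotes counts scaled to a common library size of 1000000. No list of genes that mark the hypocotyl against other organs was at hand, so the tissue label itself was not checked. In bulk tissue, fewer cells of a type and less RNA per cell cannot be told apart, which holds for every value given here.

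BAP changed more genes downward than upward. A gene was called when its adjusted p in edgeR's quasi-likelihood test was below 0.05 and its absolute log2 fold change was above 1. By this rule 1933 genes (4.99% of those tested) were higher and 3057 genes (7.89%) were lower in BAP than in mock. The median size of the change was 2.03 on the log2 scale for genes called higher and 1.81 for genes called lower. More than 16-fold changes were found for 318 genes called higher and 205 called lower. In 126 genes called higher and 63 called lower, 1 of the groups had no count at all, so their fitted fold changes are not bounds. The 3 BAP libraries lay wholly above the 3 mock libraries for 1754 of the genes called higher (90.7%) and wholly below for 2979 of the genes called lower (97.4%), whereas 19.9% of all tested genes lay above and 21.7% below without overlap. With no threshold on the fold, 5442 genes (14.1%) were higher and 6033 (15.6%) lower.

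The called genes were also described by their share of reads. Genes called lower held 5.13, 4.31 and 4.06% of the reads in the BAP libraries, against 12.4, 12.5 and 13.1% in the mock libraries. Genes called higher held 4.76, 4.95 and 5.55% in the BAP libraries, against 1.35, 1.46 and 1.29% in the mock libraries. These shares describe genes chosen for their difference and carry no test. Among the 1838 genes with a mean of at least 100 CPM, 61 (3.32%) were called higher and 137 (7.45%) lower, and among the 7222 genes under 1 CPM these were 487 (6.74%) and 503 (6.96%).

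**Figure D1:**
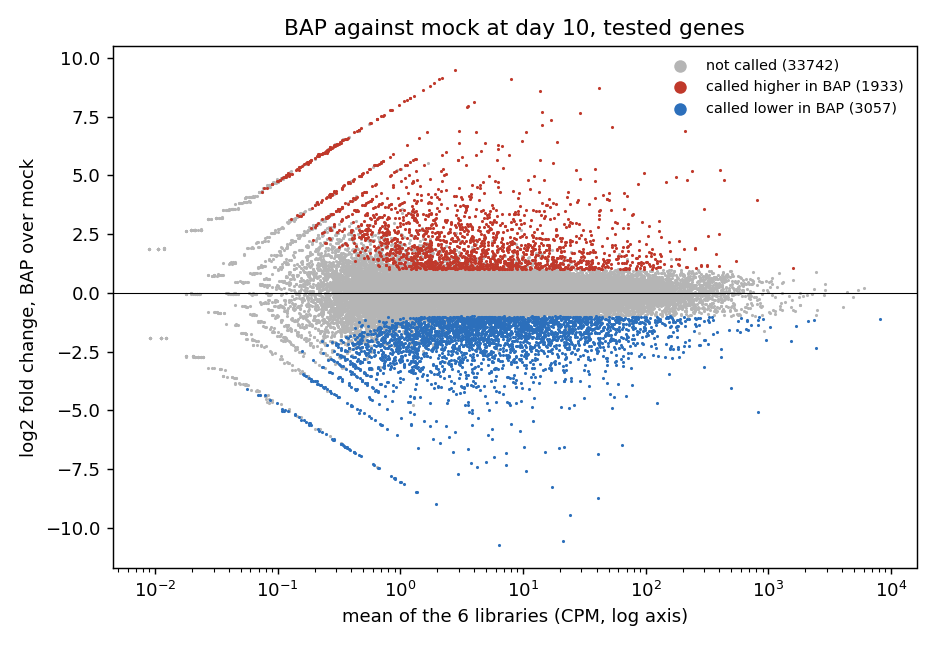
Each point is 1 of 38732 tested genes. The horizontal axis is the mean of the 6 libraries in CPM (log axis) and the vertical axis is the fitted log2 fold change of BAP over mock at day 10. Red points are the 1933 genes called higher in BAP, blue points the 3057 called lower, and grey points the rest; the straight rays at low CPM are genes with few counts in 1 of the groups.

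Descriptions behind the gene lists came from the study's own tables, which list genes that changed after grafting or under IAA at day 5, and from its lists of cell wall gene families and graft transcription factors. Genes of those tables were not a neutral background: of 3126 that were tested, 491 (15.7%) were called higher in BAP and 204 (6.53%) lower, with a median log2 fold change of 0.44, against 0.002 over all tested genes. Of those genes, 1122 (35.9%) lay wholly above mock and 378 (12.1%) below. These shares are the background for the lists below, except for the laccases, pectin methyl esterases, glucanases and lyases. The study listed those as families, and they are read against all tested genes. Its graft transcription factors, drawn up from grafted plants, are read against both.

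Of the genes of cytokinin metabolism and signalling that could be recognized, 5 were tested, and 2 were called higher and 1 lower. With the 6 libraries of day 10 fitted alone, both higher members fell under the low-count filter and were not tested, and 1 member was called. The ARR9-like response regulator MA_132682g0010, whose Arabidopsis namesake is a type-A regulator, had 1.49, 0.433 and 1.90 CPM in BAP libraries, against 0, 0.0675 and 0 CPM in mock libraries. It was 59 counts over the BAP libraries against 1 count over the mock libraries, a ratio of 57.1 with an exact interval of 9.86 to 2293 for counting error, and its adjusted p was 0.00035. All 3 BAP libraries were above the mock libraries, at a low level. A further regulator, the response regulator 1 MA_23430g0010, was looked up after its values were seen because the only table naming it rests on the same mock libraries. It had 6.11, 3.95 and 5.64 CPM in BAP libraries and 1.55, 2.30 and 0.975 CPM in mock libraries. This gave 1.71 ± 0.32 (SE) for the log2 fold change, at an adjusted p of 0.00012. Another response regulator looked up in the same way was not among the tested genes.

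Among genes that remove or release cytokinin, 1 was called in each direction. Cytokinin dehydrogenase 7 (MA_10432877g0010) had 0.852, 0.541 and 0.444 CPM in BAP libraries and no count in mock libraries. It was at least 9.36-fold higher in BAP against a floor of 3 counts over the mock group (adjusted p 0.019). The LOG-type cytokinin riboside 5′-monophosphate phosphoribohydrolase MA_12058g0010 had 0.142, 0.595 and 0 CPM in BAP libraries, against 2.22, 3.44 and 3.52 CPM in mock libraries, without overlap. Its log2 fold change was -3.51 ± 0.46 (adjusted p 9.5e-07), and it was also called lower on day 5 (-3.27) and day 15 (-3.31). Cytokinin dehydrogenase 1 (MA_197101g0010), with 21 counts over BAP libraries and 2 over mock libraries, was not called (adjusted p 0.065). The zeatin O-glucosyltransferase-like MA_10435034g0010, of a family that makes inactive conjugates, had 1.99, 3.14 and 3.11 CPM in BAP libraries and 2.66, 2.77 and 1.95 CPM in mock libraries, which overlapped (log2 fold change 0.17 ± 0.31). Without mock replicate 3 the call of cytokinin dehydrogenase 7 was lost (adjusted p 0.061), and without mock replicate 2 cytokinin dehydrogenase 1 was called (adjusted p 0.048).

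The laccases were the family with the most genes called lower. Laccases are multicopper oxidases that couple lignin precursors in the cell wall. Of the 62 tested members of the study's laccase list, 37 (59.7%, against 7.89% of all tested genes) were called lower and 10 (16.1%, against 4.99%) higher. The median log2 fold change was -1.88, or -1.77 with the members at 0 set to their bounds. The BAP libraries lay wholly below the mock libraries for 38 members (61.3%, against 21.7% of all tested genes) and wholly above for 11 (17.7%, against 19.9%). Summed over the list, laccase transcripts amounted to 747, 627 and 831 CPM in BAP libraries, against 2483, 3103 and 2060 CPM in mock libraries. Reads of near-identical copies may have been split or dropped in the authors' counting, so the values of single members are uncertain.

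The most abundant member, MA_10435604g0010, had 90.7, 57.6 and 23.6 CPM in BAP libraries, against 912, 1286 and 603 CPM in mock libraries. Its log2 fold change was -4.03 ± 0.64 (adjusted p 2.6e-05), and it made up 29.3 to 41.4% of the summed laccase level in mock libraries. The remaining members still summed to 657, 569 and 807 CPM in BAP libraries, against 1571, 1817 and 1457 CPM in mock libraries. Laccase MA_57140g0010 fell to 1.14, 0.595 and 0.634 CPM in BAP libraries, against 16.6, 31.3 and 20.4 CPM in mock libraries (log2 fold change -4.87 ± 0.73). The laccase-12-like MA_208475g0010 had 1.28, 1.89 and 2.09 CPM in BAP libraries and 21.9, 25.5 and 29.1 CPM in mock libraries, and laccase-17 MA_11289g0010 had 0.639, 0.704 and 0.380 CPM in BAP libraries and 7.99, 10.4 and 8.88 CPM in mock libraries. The multicopper oxidase MA_10431084g0010 of the same list had 0.923, 1.35 and 1.84 CPM in BAP libraries and 31.5, 47.1 and 40.9 CPM in mock libraries. Laccase MA_132857g0010 had no count in the BAP libraries and 129 counts over the mock libraries, so it was at least 44.4-fold lower in BAP.

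A minority of laccases went the other way. PaLAC1-like (MA_75861g0010) had 4.62, 13.5 and 9.38 CPM in BAP libraries, against 1.48, 0.743 and 0.866 CPM in mock libraries, and its log2 fold change was 3.17 ± 0.87 (adjusted p 0.0066). The 10 members called higher summed to 290, 244 and 519 CPM in BAP libraries, against 79.0, 94.8 and 62.0 CPM in mock libraries, and thus held 38.8 to 62.5% of the laccase level in BAP libraries, against 3.01 to 3.18% in mock libraries. The 37 members called lower held 29.3 to 54.7% in BAP libraries, against 94.5 to 94.9% in mock libraries. Members called higher or lower were chosen on these libraries, so their shares had to differ and carry no test.

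**Figure D2:**
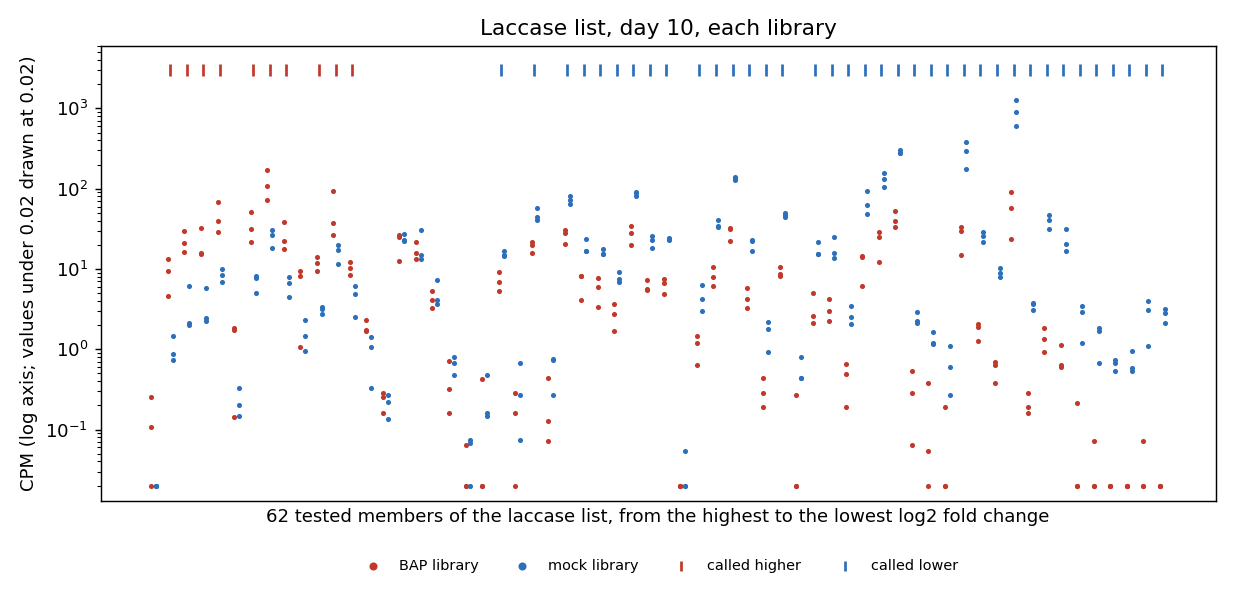
The 62 tested members of the laccase list are ordered along the horizontal axis from the highest to the lowest log2 fold change, and the vertical axis gives CPM (log axis; values under 0.02 are drawn at 0.02). Red points are the 3 BAP libraries and blue points the 3 mock libraries of day 10, and the ticks at the top mark the 10 members called higher (red) and the 37 called lower (blue). The member with the highest mock values is MA_10435604g0010 at 603 to 1286 CPM in mock libraries and 23.6 to 90.7 CPM in BAP libraries.

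Beside the laccases, a xylem factor and lists of lignin and cellulose genes were examined. PaVND4-like (MA_6777g0010), named for Arabidopsis NAC factors that switch on xylem vessel differentiation, had 21.4, 23.2 and 21.5 CPM in BAP libraries, against 51.7, 69.4 and 62.5 CPM in mock libraries. The log2 fold change was -1.47 ± 0.26 (adjusted p 7.2e-05), and PaVND4-like was also called lower on day 15 (-2.14) though not on day 5 (-0.89). In the monolignol pathway, which makes the lignin building blocks, 6 of 31 members (19.4%) were called higher and 6 (19.4%) lower, against 15.7 and 6.53% in the study tables, with a median log2 fold change of 0.16. The abundant trans-cinnamate 4-monooxygenase MA_118702g0010, an early enzyme of that pathway, fell to 593, 519 and 613 CPM in BAP libraries, against 1156, 1242 and 1363 CPM in mock libraries (log2 fold change -1.12 ± 0.09, adjusted p 5.6e-10). Another gene with that annotation, MA_10435536g0010, had 18.0, 52.5 and 88.3 CPM in BAP libraries and 2.59, 1.08 and 0.758 CPM in mock libraries (log2 fold change 5.21 ± 0.81). One more, MA_10159692g0010, had 1.92, 1.35 and 0.951 CPM in BAP libraries and 6.36, 24.0 and 16.6 CPM in mock libraries. It was no longer called without BAP replicate 2 (adjusted p 0.051) or BAP replicate 3 (adjusted p 0.062). The pathway's members summed to 1616, 1460 and 1930 CPM in BAP libraries, against 2797, 3231 and 3273 CPM in mock libraries, without overlap.

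Among 9 tested genes of cellulose and xylan synthesis, 1 (11.1%, against 15.7% in the study tables) was called higher and 3 (33.3%, against 6.53%) were called lower. COBRA 1 (MA_10431440g0010), of a family that orients cellulose deposition in Arabidopsis, had 6.39, 11.0 and 15.0 CPM in BAP libraries and 2.74, 4.86 and 5.74 CPM in mock libraries. Cellulose synthase E1 (MA_10431964g0010) had 0.355, 0.271 and 0.254 CPM in BAP libraries and 3.18, 2.50 and 1.19 CPM in mock libraries. The list had 2 called members without mock replicate 2 and 1 without BAP replicate 2 or BAP replicate 3. The COBRA 1 call was lost without BAP replicate 3 (adjusted p 0.063), and that of cellulose synthase E1 without mock replicate 1, BAP replicate 2 or BAP replicate 3 (adjusted p 0.052 to 0.055).

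Class III peroxidases, the other enzymes that polymerize lignin and also act in defence, were called in 1 direction. Of 39 tested members, 14 (35.9%, against 15.7% in the study tables) were called higher and 0 lower, with a median log2 fold change of 1.87, or 0.82 when the 11 members with a group at 0 were set to their bounds. At an adjusted p below 0.05 with no fold threshold the count lower was also 0. Peroxidase 12 (MA_10432865g0020), the most abundant, had 82.2, 111 and 241 CPM in BAP libraries, against 7.62, 9.86 and 24.0 CPM in mock libraries (log2 fold change 3.37 ± 0.46, adjusted p 2.8e-06). Peroxidase 4-like MA_10430578g0010 had 281 counts over BAP libraries and 3 over mock libraries, a ratio of 90.7 (counting interval 30.7 to 442). PaPRX66-like (MA_10431507g0020), which the study uses as a xylem marker, had 1.92, 0.866 and 3.49 CPM in BAP libraries and 0.296, 0.270 and 0.217 CPM in mock libraries, and rose by 2.97 ± 0.69 on the log2 scale while PaVND4-like and most laccases were lower. Without mock replicate 3 the list had 9 called members, and without BAP replicate 1 its median was 1.29.

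Proteins of defence and detoxification held the largest shares of genes called higher. Of 43 tested chitinases, thaumatins, glucanases and other pathogenesis-related (PR) proteins, 19 (44.2%, against 15.7% in the study tables) were called higher and 0 lower, with a median log2 fold change of 2.00, or 1.72 with the 3 members at 0 set to their bounds. With no fold threshold 20 were higher and 2 lower. Chitinases cleave the chitin of fungal walls, and PR-4 proteins bind or cleave chitin. The class IV chitinase MA_10427514g0010 had 375, 331 and 1675 CPM in BAP libraries, against 20.1, 23.6 and 20.3 CPM in mock libraries (log2 fold change 5.22 ± 0.73). The PR-4-like MA_10434174g0010 had 488, 650 and 1384 CPM in BAP libraries, against 34.5, 40.9 and 16.4 CPM in mock libraries (log2 fold change 4.78 ± 0.50). BAP replicate 3 was the highest for both, and for the whole list, whose summed level was 1718, 2153 and 4980 CPM in BAP libraries, against 641, 510 and 375 CPM in mock libraries. Without BAP replicate 3 the median was 1.09 with 13 members called. On day 15 the list had 28 members called higher and 0 lower, and on day 5 8 higher and 1 lower.

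Glutathione transferases conjugate reactive or foreign compounds to glutathione. Of 27 tested, 16 (59.3%, against 15.7% in the study tables) were called higher and 1 lower, with a median log2 fold change of 2.21. The summed level was 496, 832 and 657 CPM in BAP libraries, against 318, 338 and 301 CPM in mock libraries, without overlap. The tau class member MA_10101302g0010 had 0.355, 4.55 and 1.52 CPM in BAP libraries and none in mock libraries, at least 36.5-fold higher in BAP. The most abundant member, the lambda class MA_10145917g0010, had 119, 84.7 and 115 CPM in BAP libraries and 124, 153 and 119 CPM in mock libraries and was not called (log2 fold change -0.31 ± 0.20). Another lambda class member, MA_10429044g0020, was called lower at 0, 0.325 and 0.380 CPM in BAP libraries, against 1.70, 1.42 and 2.38 CPM in mock libraries. Without BAP replicate 2 there were 11 called members, and MA_10101302g0010 was not among them (adjusted p 0.083).

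Ribosomal proteins and ribosome biogenesis factors moved by a small and even amount. Of 118 tested members, 117 had a positive log2 fold change and the BAP libraries lay wholly above the mock libraries for 105 (89.0%), against 35.9% of the genes in the study tables and 19.9% of all tested genes. The median log2 fold change was 0.73, with quartiles of 0.60 and 0.87, against 0.44 in the study's tables as a whole, and 7 (5.93%, against 15.7% in the study tables) were called higher and 0 lower under the fold threshold. With no fold threshold, a setting added after the data were seen, 103 were higher and 0 lower. Ribosomal S5 (MA_158470g0010) had 1492, 1567 and 1651 CPM in BAP libraries, against 819, 883 and 928 CPM in mock libraries (log2 fold change 0.84 ± 0.07, adjusted p 1.1e-09). The chloroplast 50S ribosomal L3 (MA_14906g0010) had 15.1, 18.8 and 21.2 CPM in BAP libraries and 6.44, 6.55 and 10.2 CPM in mock libraries (log2 fold change 1.24 ± 0.16). The list summed to 21028, 22534 and 24451 CPM in BAP libraries, against 12851, 13872 and 14207 CPM in mock libraries. Without mock replicate 3 or BAP replicate 1 the calls under the fold threshold numbered 14 and 15.

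Cell division genes showed a similar small shift. Of 30 tested members, 28 had a positive log2 fold change, 21 (70.0%) lay wholly above the mock libraries and 1 below, and the median was 0.72, against 35.9% above and a median of 0.44 in the study tables. Under the fold threshold 5 (16.7%) were called higher and 0 lower, a share near the 15.7% of those tables, and with no fold threshold 21 were higher and 1 lower. PaCDKB2;2-like (MA_920994g0010), a mitotic cyclin-dependent kinase, had 97.8, 96.4 and 105 CPM in BAP libraries, against 63.4, 62.3 and 51.6 CPM in mock libraries. Its log2 fold change of 0.76 ± 0.11 (adjusted p 5.0e-06) was under the fold threshold. The cell division control 2 homolog C MA_10429863g0010 was called, with 3.34, 5.20 and 4.06 CPM in BAP libraries and 2.29, 1.28 and 1.14 CPM in mock libraries. Histone H2A (MA_10426943g0010) had 38.7, 33.4 and 52.2 CPM in BAP libraries and 23.3, 27.8 and 24.6 CPM in mock libraries (log2 fold change 0.71 ± 0.16). Summed over the list, cell division transcripts amounted to 417, 401 and 468 CPM in BAP libraries, against 285, 277 and 255 CPM in mock libraries. Without BAP replicate 3 the list had 3 called members and a median of 0.57.

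Enzymes that loosen or remodel the primary wall changed member by member. Among 23 tested beta-1,4-glucanases, which cut cellulose-like chains, 6 (26.1%, against 4.99% of all tested genes) were called higher and 4 (17.4%, against 7.89%) lower. Their median log2 fold change was 0.00. Endoglucanase 17-like MA_128094g0010 was at 579, 454 and 208 CPM in BAP libraries, against 0.888, 8.51 and 1.08 CPM in mock libraries, or 6.90 ± 0.80 on the log2 scale (adjusted p 3.0e-07). Endoglucanase 3 (MA_216572g0010), the most abundant, had 2700.5, 2238 and 1498 CPM in BAP libraries and 943, 1115 and 986 CPM in mock libraries, and endoglucanase 1-like MA_10107572g0010 fell to 0.639, 0 and 0.507 CPM in BAP libraries, against 4.22, 2.50 and 7.80 CPM in mock libraries. The summed level of the list was 4544, 3772 and 2478 CPM in BAP libraries, against 1271, 1464 and 1287 CPM in mock libraries, without overlap. Without BAP replicate 1 the log2 fold change of endoglucanase 3, 1.08 with all libraries, was 0.88 and under the threshold.

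Pectin methyl esterases (PMEs) remove methyl groups from pectin, and lyases then cleave the exposed chain. Of 55 tested PMEs, 10 (18.18%, against 4.99% of all tested genes) were called higher and 8 (14.55%, against 7.89%) lower. Of 32 tested pectate and pectin lyases, 5 (15.6%) were called higher and 7 (21.9%) lower. Both lists were thus above the shares of all tested genes in both directions. The abundant pectinesterase-like MA_10434624g0020 had 311, 420 and 465 CPM in BAP libraries, against 103, 115 and 107 CPM in mock libraries (log2 fold change 1.88 ± 0.16, adjusted p 7.1e-10). PaPME5-like (MA_10267810g0010) had 22.01, 27.0 and 21.5 CPM in BAP libraries and 12.1, 10.3 and 7.91 CPM in mock libraries (log2 fold change 1.22 ± 0.17). In the opposite direction, the pectinesterase-like MA_648837g0010 had 0.994, 0 and 0.190 CPM in BAP libraries and 4.44, 6.68 and 6.28 CPM in mock libraries, and the PME MA_53377g0010 had 0.497, 0 and 0.0634 CPM in BAP libraries and 3.92, 4.39 and 5.47 CPM in mock libraries. The largest rise of a PME that reached 1 CPM was that of pectinesterase-like MA_133919g0010, with 1.49, 2.06 and 3.68 CPM in BAP libraries and 0.148, 0.0675 and 0.0542 CPM in mock libraries.

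Pectate lyase 5 (MA_103716g0010) had 560, 471 and 170 CPM in BAP libraries and 97.9, 107 and 119 CPM in mock libraries. Pectate lyase 18 genes differed in direction: MA_10428603g0020 rose by 3.02 ± 0.38 on the log2 scale, to 253, 143 and 106 CPM in BAP libraries, against 15.0, 22.8 and 23.9 CPM in mock libraries. MA_10431323g0020, with the same annotation, fell by 3.20 ± 0.38, to 1.07, 1.46 and 1.01 CPM in BAP libraries, against 11.6, 11.8 and 9.53 CPM in mock libraries. Of 33 expansins and xyloglucan enzymes, 4 (12.1%) were called higher and 3 (9.09%) lower, against 15.7 and 6.53% in the study tables, and expansin A4 (MA_10425823g0010), the most abundant, overlapped between the groups at 697, 554 and 679 CPM in BAP libraries and 575, 621 and 600 CPM in mock libraries. That list had 4 called members without mock replicate 3 or without BAP replicate 3. Its largest called changes were the xyloglucan endotransglucosylase/hydrolase 7 MA_10083496g0010 (log2 fold change 2.60, adjusted p 0.049) and the expansin MA_10430035g0010 (log2 fold change -1.44, adjusted p 0.018), and leaving out a single library gave adjusted p up to 0.17 and 0.091 for them.

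In the ethylene list 5 of 24 members (20.8%, against 15.7% in the study tables) were called higher and 2 (8.33%, against 6.53%) lower, with a median log2 fold change of 1.38, or 0.82 with 5 members set to their bounds. ACC synthase 7-like MA_10375359g0010, which makes the ethylene precursor, had 59 counts over BAP libraries and 0 over mock libraries, at least 19.0-fold higher in BAP. The ethylene-forming enzyme MA_10435508g0020, which converts that precursor, had 0.0710, 0.162 and 0 CPM in BAP libraries, against 1.11, 2.84 and 2.71 CPM in mock libraries. PaERF115-like (MA_10274g0010), named for an Arabidopsis factor of wound-induced cell replacement, had 1.92, 1.95 and 5.70 CPM in BAP libraries and 0.888, 0.473 and 0.108 CPM in mock libraries (log2 fold change 2.78 ± 0.54, adjusted p 0.00031). Without BAP replicate 2 the list had 4 called members, and its median lay between 0.75 and 1.07 without mock replicate 1 or 3 or BAP replicate 2 or 3.

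Of 38 auxin genes, 4 (10.5%, against 15.7% in the study tables) were called higher and 6 (15.8%, against 6.53%) lower. The auxin transporter 2 MA_131574g0010 had 0.923, 34.5 and 4.18 CPM in BAP libraries and 0.148, 0.203 and 0.162 CPM in mock libraries. It rested on BAP replicate 2, without which its log2 fold change was 3.87 with an adjusted p of 0.14. Indole-3-acetate O-methyltransferase 1 (MA_1625746g0010) fell, with 2 counts over BAP libraries and 72 over mock libraries, a ratio of mock to BAP of 37.2 (counting interval 9.93 to 313). The most abundant auxin gene, the auxin induced MA_14786g0010, was at 102, 188 and 146 CPM in BAP libraries and 170, 227 and 292 CPM in mock libraries and was not called (adjusted p 0.069). Without BAP replicate 2 or BAP replicate 3 the list had 5 and 6 called members, and without mock replicate 3 its median turned from -0.15 to 0.19.

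The abscisic acid enzyme 9-cis-epoxycarotenoid dioxygenase (MA_10428505g0010), which carries out the limiting step of that hormone's synthesis, fell to 0.568, 0.325 and 0.570 CPM in BAP libraries, against 7.62, 6.48 and 9.42 CPM in mock libraries (log2 fold change -4.01 ± 0.53, adjusted p 1.3e-06). It was also called lower on day 5 (-4.33) and day 15 (-4.00). Gibberellin-regulated 12-like MA_10298g0010 was called higher (log2 fold change 2.55, adjusted p 0.018), although 16.05, 10.3 and 2.47 CPM in BAP libraries overlapped with 4.00, 1.15 and 0.0542 CPM in mock libraries. It lost its call without mock replicate 2, mock replicate 3 or BAP replicate 1 (adjusted p 0.068 to 0.093). Of the 10 gibberellin and abscisic acid genes, 2 (20.0%) were called in each direction, against 15.7% higher and 6.53% lower in the study tables. Leaving out mock replicate 1, mock replicate 3 or BAP replicate 1 left 1 or 2 called in all. Without mock replicate 3 the median turned from -0.13 to 0.82.

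In the jasmonate list 3 of 14 members (21.4%, against 15.7% in the study tables) were called higher and 1 (7.14%, against 6.53%) lower. Allene oxide synthase MA_10030456g0010, which commits fatty acid hydroperoxides to jasmonate, had 3.76, 4.82 and 7.10 CPM in BAP libraries, against 24.3, 35.1 and 40.9 CPM in mock libraries (log2 fold change -2.68 ± 0.48). The 9S-lipoxygenase MA_123947g0010 was higher at 29.9, 37.4 and 51.1 CPM in BAP libraries, against 6.96, 13.8 and 16.03 CPM in mock libraries. The most abundant, the chloroplast 13S-lipoxygenase MA_153g0020, had 30.5, 79.8 and 50.8 CPM in BAP libraries and 20.7, 43.5 and 50.1 CPM in mock libraries and was not called (adjusted p 0.45).

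Among secondary metabolites, dirigent proteins, which guide the coupling of lignan precursors, and lignan enzymes had 8 of 24 members (33.3%, against 15.7% in the study tables) called higher and 3 (12.5%, against 6.53%) lower. Dirigent pDIR2 (MA_108494g0010) had 7.81, 8.82 and 20.7 CPM in BAP libraries and 0.148, 0.270 and 0.0542 CPM in mock libraries (log2 fold change 6.30 ± 0.86), and dirigent MA_10434362g0010 had 14.3, 11.9 and 10.9 CPM in BAP libraries and 48.5, 45.3 and 59.7 CPM in mock libraries (log2 fold change -2.05 ± 0.32). Terpene genes, which serve resin, had 3 of 11 (27.3%, against 15.7% in the study tables) called higher and 1 (9.09%, against 6.53%) lower. Wholly above mock lay 3 of them (27.3%, against 35.9%) and wholly below 3 (27.3%, against 12.1%). The sesquiterpene synthase MA_10435706g0010 had 13.8, 36.2 and 35.5 CPM in BAP libraries and 0.296, 0.0675 and 0.217 CPM in mock libraries (log2 fold change 7.16 ± 1.31, adjusted p 0.00014), and MA_152325g0010, with the same annotation, was at least 41.6-fold higher in BAP, with no count in mock. The cytochrome P450 750A1 MA_10436871g0030 was the terpene gene called lower, with 0.497, 0.704 and 1.01 CPM in BAP libraries and 2.52, 3.44 and 3.63 CPM in mock libraries.

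Flavonoid and stilbene genes had 3 of 26 (11.5%) called in each direction, against 15.7% higher and 6.53% lower in the study tables. Chalcone synthase MA_10426264g0020, the entry enzyme of flavonoid synthesis, had 625, 565 and 975 CPM in BAP libraries and 860, 1092 and 1236 CPM in mock libraries, which overlapped (log2 fold change -0.56 ± 0.19). Dihydroflavonol 4-reductase MA_10432784g0010 was lower, with 6.82, 3.08 and 2.09 CPM in BAP libraries and 15.7, 24.98 and 24.0 CPM in mock libraries. Another gene of that name, MA_10435833g0010, was higher, with 2.13, 7.31 and 4.56 CPM in BAP libraries and 0.0740, 1.22 and 1.03 CPM in mock libraries, but lost its call without mock replicate 1 or BAP replicate 2 (adjusted p 0.068 and 0.075).

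Nutrient transporters summed to 144, 121 and 135 CPM in BAP libraries, against 86.5, 83.5 and 69.7 CPM in mock libraries, without overlap, and 7 of 18 members (38.9%, against 35.9% in the study tables) lay wholly above mock and 0 below. Of these 18, 3 (16.7%, against 15.7%) were called higher and 0 lower (0 also at an adjusted p below 0.05 with no fold threshold). Sugar transport genes had 0 of 12 called higher (against 15.7% in the study tables) and 1 (8.33%, against 6.53%) lower. The lower one was the sugar carrier C MA_10430584g0010, with 3 counts over BAP libraries and 61 over mock libraries, a ratio of mock to BAP of 21.0 (counting interval 6.86 to 105). The phosphate transporter 1-4-like MA_10434456g0010 was called higher at 0.284, 1.41 and 1.52 CPM in BAP libraries and 0, 0.135 and 0.271 CPM in mock libraries. Its adjusted p was 0.022, and lay between 0.062 and 0.089 without mock replicate 1 or 2 or BAP replicate 2 or 3, while the list had 6 called members without BAP replicate 1. The abundant NRT1/PTR member MA_10136262g0010, of a nitrate and peptide transporter family, had 49.6, 20.6 and 36.6 CPM in BAP libraries and 27.6, 19.0 and 8.29 CPM in mock libraries and was not called, but was called without mock replicate 1 (adjusted p 0.037) or BAP replicate 2 (adjusted p 0.047). The abundant sugar carrier C-like MA_170670g0010 had 102, 65.3 and 103 CPM in BAP libraries and 134, 120 and 141 CPM in mock libraries (log2 fold change -0.55 ± 0.18), under the fold threshold.

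Heat shock proteins and chaperones, which respond to many stresses, had 5 of 48 members (10.4%, against 15.7% in the study tables) called higher and 1 lower, with a median log2 fold change of 0.64. Their summed level was 5419, 3858 and 3185 CPM in BAP libraries, against 3650, 2604 and 2322 CPM in mock libraries, so replicate 1 was the highest in both groups and the groups overlapped. Heat shock 83 (MA_10434030g0010) had 1118, 600 and 472 CPM in BAP libraries and 788, 376 and 209 CPM in mock libraries (adjusted p 0.34). The class IV heat shock protein MA_10243352g0010 had 44.0, 20.1 and 4.82 CPM in BAP libraries and 7.40, 8.30 and 4.87 CPM in mock libraries, and its call was lost without BAP replicate 1 or mock replicate 3 (adjusted p 0.26 and 0.086). The list had 3 called members without mock replicate 2, 1 without mock replicate 3, 2 without BAP replicate 1 and 11 without BAP replicate 3. The part of these genes in the other results was not tested.

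Transcription factors were called in both directions. Of 61 tested graft transcription factors, a list that the authors drew up from grafted plants, 6 (9.84%) were called higher and 12 (19.7%) lower. Over all tested genes the shares were 4.99% and 7.89%, and in the study tables they were 15.7% and 6.53%. The share called higher thus lay between these 2 backgrounds, and the share called lower was above both. LOB domain-containing 40-like MA_75731g0010 had 43.3, 33.6 and 26.6 CPM in BAP libraries, against 2.66, 2.77 and 2.06 CPM in mock libraries (log2 fold change 3.79 ± 0.42, adjusted p 1.3e-07). LOB domain-containing 11-like MA_131805g0010 rose by 2.80 ± 0.53, with 1.49, 4.11 and 9.38 CPM in BAP libraries and 0.666, 1.08 and 0.433 CPM in mock libraries. In Arabidopsis, LOB domain factors act at organ boundaries and in lateral root formation. Of the 9 tested, 3 (33.3%, against 15.7% in the study tables) were called higher and 0 (against 6.53%) lower (0 also with no fold threshold). MA_137415g0010, a graft transcription factor with no description, fell to 6.96, 9.42 and 7.29 CPM in BAP libraries, against 31.2, 50.9 and 69.8 CPM in mock libraries.

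PaMYB123-like (MA_10048467g0010) had 8.31, 7.31 and 14.2 CPM in BAP libraries and 1.04, 1.96 and 2.92 CPM in mock libraries (log2 fold change 2.29 ± 0.37, adjusted p 2.4e-05). Of 19 MYB factors 6 (31.6%, against 15.7% in the study tables) were called higher and 2 lower, and the most abundant, a myb-related factor MA_130918g0010, fell to 67.3, 36.2 and 105 CPM in BAP libraries, against 125, 138 and 179 CPM in mock libraries (log2 fold change -1.09 ± 0.26). It dropped under the fold threshold without mock replicate 3 (-0.92) or BAP replicate 2 (-0.77), and the list had 4 or 5 called members without mock replicate 1, mock replicate 3, BAP replicate 2 or BAP replicate 3. The myb factor MA_10157944g0010 was also lower (log2 fold change -2.18, adjusted p 0.0085), though not without BAP replicate 3 (adjusted p 0.059). Of 19 WRKY factors, known for defence responses, 3 (15.8%, against 15.7%) were called higher and 4 (21.1%, against 6.53%) lower, and without mock replicate 3 or BAP replicate 1 these were 4 in all. WRKY 14 (MA_10432914g0010) had 1.49, 0.704 and 0.761 CPM in BAP libraries and 3.40, 4.05 and 6.07 CPM in mock libraries, and WRKY 51 (MA_179641g0010) was called at an adjusted p of 0.043 that ranged up to 0.18 without a single library.

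Genes given a name of their own and an ID in the paper were compared one by one. They include markers of cell division, phloem and xylem and regulators of graft healing. Of these 16 genes 5 were called higher (PaLAC1-like, PaPRX66-like, PaERF115-like, PaMYB123-like and PaPME5-like), 1 was called lower (PaVND4-like) and 10 were not called. PaWIP4-like (MA_29238g0010), a zinc finger factor, lay just under the fold threshold, with 46.5, 35.01 and 45.2 CPM in BAP libraries, against 22.2, 22.8 and 18.7 CPM in mock libraries without overlap (log2 fold change 0.99 ± 0.19, adjusted p 0.00022). It was past the threshold without mock replicate 1, mock replicate 2 or BAP replicate 2, at 1.03, 1.05 and 1.11. The phloem factor PaAPL-like (MA_201937g0010) had 2.698, 2.44 and 1.90 CPM in BAP libraries and 3.03, 3.04 and 3.52 CPM in mock libraries, without overlap, and was not called (log2 fold change -0.45 ± 0.26, adjusted p 0.21).

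Of the 10 genes not called, PaCDKB2;2-like, described above, also separated the groups, and the other 7 overlapped between BAP and mock. PaPAT1-like (MA_10426489g0020), a GRAS factor of graft healing, had 8.66, 5.74 and 8.62 CPM in BAP libraries and 8.44, 8.37 and 7.47 CPM in mock libraries (log2 fold change -0.08 ± 0.20). PaWIND1-like (MA_98464g0010), whose Arabidopsis namesake promotes callus at wounds, had 3.69, 1.79 and 4.18 CPM in BAP libraries and 2.00, 4.59 and 2.38 CPM in mock libraries (log2 fold change 0.10 ± 0.66). PaWOX13-like (MA_116716g0010) was at 1.42, 1.79 and 2.73 CPM in BAP libraries and 1.04, 2.09 and 1.57 CPM in mock libraries. PaKOR1-like, PaLRP1-like, PaMYB4-like and PaPECTIN LYASE-like had log2 fold changes of 0.62 ± 0.35, 0.29 ± 0.32, -0.56 ± 0.36 and -0.81 ± 1.09 (SE) and adjusted p of 0.20, 0.55, 0.27 and 0.63.

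**Figure D3:**
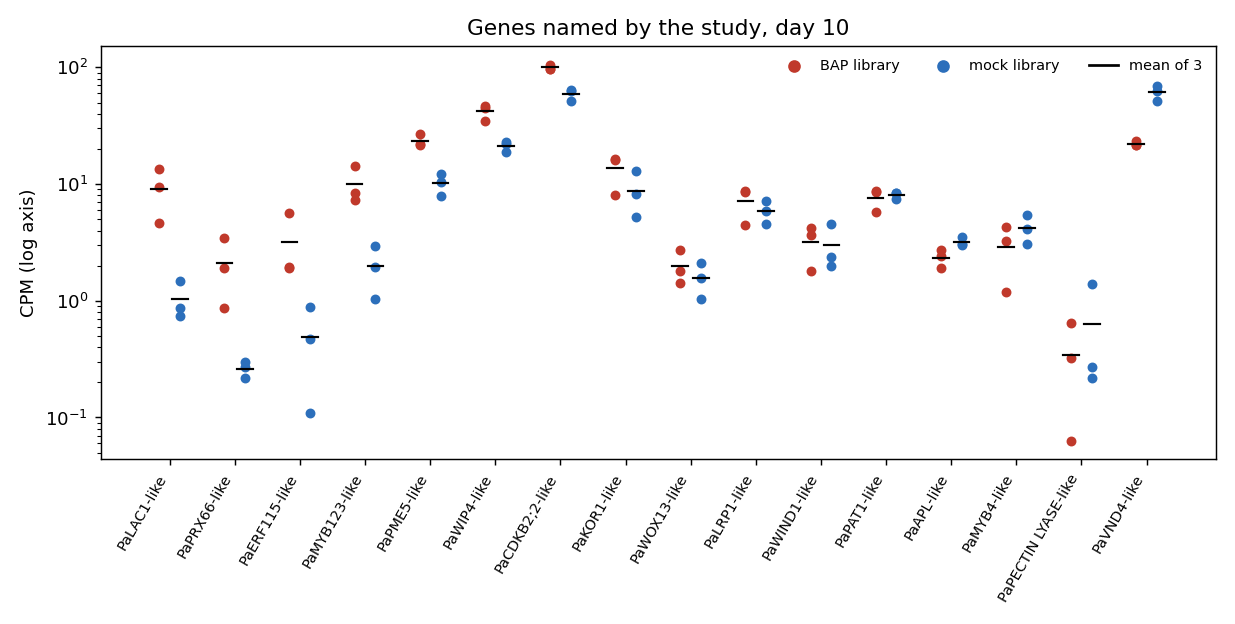
CPM (log axis) of the 16 genes that the study names, in each of the 3 BAP libraries (red, left) and 3 mock libraries (blue, right) of day 10, with the mean of 3 as a black bar. Genes are ordered by log2 fold change, from PaLAC1-like (3.17) to PaVND4-like (-1.47); PaAPL-like separates without being called, and PaPAT1-like overlaps.

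The named genes with the largest rises were of several kinds. The glucosyltransferase MA_101997g0010 (7-deoxyloganetin glucosyltransferase-like) had 29.5, 35.2 and 35.6 CPM in BAP libraries, against 0.592, 0.0675 and 0 CPM in mock libraries, with close agreement among the BAP libraries (log2 fold change 7.37 ± 0.62, adjusted p 1.8e-09). The N-acyl-D-amino-acid deacylase MA_100094g0010 had 55.7, 156 and 104 CPM in BAP libraries and 1.04, 0.473 and 0.812 CPM in mock libraries. Cytochrome P450 78A5-like MA_10115334g0010, of a family that promotes organ growth in Arabidopsis, had 10.0, 7.85 and 9.19 CPM in BAP libraries and 0.148, 0.203 and 0.0542 CPM in mock libraries (log2 fold change 6.04 ± 0.59). An elongation factor 2 gene, MA_10285571g0010, had 303 counts over BAP libraries and 2 over mock libraries, a ratio of 147 (counting interval 40.2 to 1216). The PR10 gene MA_135328g0010 had 0.284, 0.704 and 20.0 CPM in BAP libraries and 0, 0 and 0.0542 CPM in mock libraries, and without BAP replicate 3 it was not called (log2 fold change 4.17, adjusted p 0.093).

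Besides the laccases and the dioxygenase, the largest named falls included a plant basic secretory protein, MA_10430454g0010, with 4.54, 6.28 and 8.24 CPM in BAP libraries and 153, 121 and 125 CPM in mock libraries (log2 fold change -4.38 ± 0.50). The norcoclaurine 6-O-methyltransferase MA_10432987g0020 had 0.710, 2.33 and 0.380 CPM in BAP libraries and 7.92, 4.73 and 28.9 CPM in mock libraries. Among genes without a description, MA_83718g0010 had 269 counts over BAP libraries and 0 over mock libraries, at least 86.8-fold higher in BAP, and MA_488631g0010 had 748 counts over BAP libraries and 1 over mock libraries. MA_158653g0010 had 1 count over BAP libraries and 2009 over mock libraries, at 41.9, 33.7 and 51.1 CPM in mock libraries, a ratio of mock to BAP of 2076 (counting interval 372 to 82020). MA_5279125g0010 had 0 counts over BAP libraries and 614 over mock libraries, at least 211-fold lower in BAP. Both were also called lower on days 5 and 15.

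The response was next compared with IAA at day 10 to see which of the named changes differed between the hormones. Both sets of fold changes share the mock libraries, so the direct test of BAP against IAA libraries was used. By it, 2659 genes (6.87%) were higher and 4409 (11.4%) lower in BAP than in IAA. Of the 10 named genes with the largest rises, 4 were called higher in BAP than in IAA and 1 lower. Endoglucanase 17-like MA_128094g0010 did not differ detectably between the hormones, with a log2 difference of -0.02 (adjusted p 0.98), and had log2 fold changes against mock of 6.90 under BAP and 6.93 under IAA. Cytochrome P450 78A5-like was 4.34 higher on the log2 scale in BAP than in IAA (adjusted p 4.7e-08), and the glucosyltransferase MA_101997g0010 was 4.87 higher. Pectate lyase 5 was 5.57 higher in BAP than in IAA, and pectate lyase 18 MA_10428603g0020 was 3.80 higher.

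Under IAA all 10 of these rises had a log2 fold change against mock above 1, and 8 of the 10 largest named falls had one below -1. Named genes needed a description, taken from tables of genes changed after grafting or under IAA and from the study's gene lists. That choice favours genes that change under IAA, so these counts carry no test. Of the 10 largest named falls, 7 were called lower in BAP than in IAA and 0 higher. Both sets of 10 were chosen on these BAP libraries, which favours rises that are higher and falls that are lower in BAP than in IAA. The log2 difference of BAP from IAA was -3.18 for the multicopper oxidase MA_10431084g0010 and -3.92 for laccase-12-like MA_208475g0010. Several cytokinin genes had higher levels under IAA. Log2 fold changes against mock were 6.31 under BAP and 12.81 under IAA for cytokinin dehydrogenase 7, 3.13 and 9.61 for cytokinin dehydrogenase 1, and 5.44 and 7.44 for the ARR9-like regulator, with BAP minus IAA differences of -6.50, -6.48 and -2.00 (adjusted p 3.1e-08, 5.2e-09 and 0.0091). The fitted values of these genes with mock counts near 0 are no bounds. The LOG-type MA_12058g0010 had -3.51 under BAP and 1.19 under IAA, a difference of -4.70. Among the genes the study names, 2 were called higher in BAP than in IAA (PaLAC1-like by 2.54 and PaWIND1-like by 3.17) and 8 lower, of which PaPECTIN LYASE-like (-7.54) and PaKOR1-like (-4.15) differed the most.

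With BAP+IAA the laccase MA_10435604g0010 had a log2 fold change against mock of -6.87, beside -4.03 under BAP and -2.19 under IAA. PaVND4-like stood at -2.01 under BAP+IAA, -1.47 under BAP and -0.58 under IAA. The N-acyl-D-amino-acid deacylase MA_100094g0010 stood at 0.98 under BAP+IAA, 7.08 under BAP and 6.30 under IAA, a value lower with both hormones than with either. These 3 values share the mock libraries and the differences between them were not tested, apart from that of BAP and IAA (0.78 for the deacylase, adjusted p 0.29).

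Finally, the day 10 response was set against those of days 5 and 15, which share no library with it. On day 5, 1177 genes (3.04%) were called higher and 2251 (5.81%) lower, and on day 15, 2710 (7.00%) were called higher and 3172 (8.19%) lower. Of the genes called higher on day 10, 780 were also called higher on day 5 (40.4% of the day 10 set and 66.3% of the day 5 set) and 1314 on day 15 (68.0% and 48.5%). Of those called lower on day 10, 1775 were also called lower on day 5 (58.1% and 78.9%) and 2225 on day 15 (72.8% and 70.1%). On all 3 days 633 genes were called higher and 1495 lower, and on day 10 alone 472 (24.4%) were called higher and 552 (18.1%) lower. The sign was shared with day 5 for 92.9% of the genes called higher and 97.5% of those called lower, and with day 15 for 97.7 and 97.5%.

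A call on 1 day and not on another is not a difference between days, so the change in response was tested itself. Between day 10 and day 5 edgeR's quasi-likelihood test called 0 genes, with 2674 genes at an unadjusted p below 0.05, whereas DESeq2 called 59. Between day 15 and day 10 it called 39 genes, 34 with a higher (0.0878%) and 5 with a lower (0.0129%) response on day 15, and DESeq2 called 234. Of these 39 genes 27 were not called on day 10. The number was unstable: it was 0 to 2 without mock replicate 1, BAP replicate 1 or BAP replicate 2 of day 10 or without any mock library or BAP replicate 2 or 3 of day 15, 20 without mock replicate 2 of day 10, 86 without BAP replicate 1 of day 15 and 134 without mock replicate 3 of day 10. The median size of the called rises was 2.03 on day 10, and the same genes had a median log2 fold change of 1.24 on day 5 and 1.95 on day 15. For the called falls the median was -1.81 on day 10, -1.32 on day 5 and -1.71 on day 15. These genes were chosen by their values on day 10. Between the mock libraries of day 10 and day 5, 11 genes were called higher and 11 lower.

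By list, the laccases had 30 members called lower on day 5, 37 on day 10 and 39 on day 15, with medians of -1.24, -1.88 and -2.67. Class III peroxidases had 6, 14 and 15 members called higher and 3, 0 and 1 called lower on days 5, 10 and 15. Their medians were 0.12, 1.87 and 1.05. With members at 0 set to their bounds the day 10 median was 0.82. Bounds were not set for the other days, so these medians do not rank the days. Glutathione transferases had 15, 16 and 11 members called higher, with medians of 2.21, 2.21 and 1.19. Ribosomal genes had medians of 0.73, 0.73 and 0.58 and cell division genes of 0.86, 0.72 and 0.56. PaLAC1-like had a log2 fold change of -0.04 on day 5, 3.17 on day 10 and 5.68 on day 15, and PaERF115-like of 5.40, 2.78 and 5.67. For none of the named genes did the test call the change between days.

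**Figure D4:**
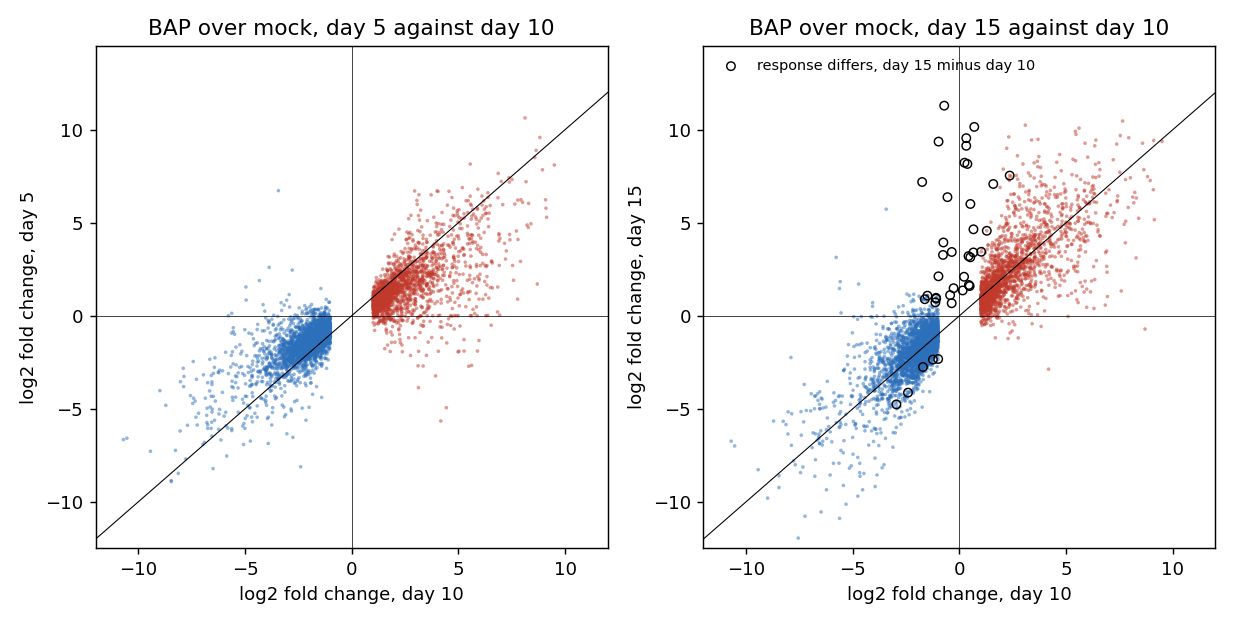
Each point is a gene called at day 10 (red higher, blue lower), placed by its log2 fold change of BAP over mock at day 10 (horizontal axes) and at day 5 (left panel) or day 15 (right panel, vertical axes), with the line of equal response. Open circles in the right panel are the 39 genes whose response differed between day 15 and day 10, of which 34 lie above the line. Most points lie in the quadrants of equal sign (92.9 to 97.7% of the called genes).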

How the data were processed

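Counts per gene were analysed for 36 hypocotyl libraries, of which 3 BAP and 3 mock libraries of day 10 are reported. The authors removed ribosomal reads with SortMeRNA, trimmed with fastp, used STAR for alignment to the P. abies v1.0 genome and HTSeq, set to reverse strand, for counting; raw counts were deposited. How multiply aligned reads were treated is not given in the sources used here. The paper describes poly(A) selection for its graft libraries, whereas for the hormone libraries it names only the company that made them. The study calls the replicates biologically independent pools of plants.

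The tests used edgeR 4.0.16, with limma 3.58.1, under R 4.3.3. filterByExpr kept 38732 genes (99.9% of counts). A single quasi-likelihood model with 12 group means, TMM-scaled libraries and 24 residual degrees of freedom gave all contrasts, and p-values were adjusted by the Benjamini-Hochberg method over all tested genes. The authors used DESeq2; here DESeq2 1.42.0 was an alternative. The SE is the absolute log2 fold change divided by the square root of F. Folds against a group at 0 used a floor of 3 counts over the group; 95% intervals of count ratios are exact, conditional on the total, and like the floor cover counting error only. The model was also run on counts simulated from the mean levels and spread of these libraries, with known changes only in well-counted genes. That run does not cover genes with few counts. All 70736 genes of the table were read, and 0 columns were left without a sample.

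Genes were named by rule: the 16 genes with an ID in the study, the 10 largest called rises and falls with a description and the 2 without, at 5 CPM or more and without overlap, and in each list the most abundant member and the largest called rise and fall at 1 CPM or more. Lists were the study's 5 lists and word rules applied to its descriptions, of which 1 entry of the laccase list reads pectinesterase. Members, lists and rules were chosen with earlier results of these data known, so lists carry no test. Coordinates and sequences were not analysed here. The settings varied were DESeq2, the 6 libraries alone, testing without the low-count filter, RLE scaling, an adjusted p below 0.01, TREAT, the replicate number as a block and leaving out each library; a count with no fold threshold was added after the data were seen.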

Additional observations from a re-analysis of the deposited data

Results flagged for a closer look

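The change in the BAP response between days was itself past the test's threshold for 39 genes between day 15 and day 10, 34 with a higher and 5 with a lower log2 fold change on day 15. Of these, 3 were called higher, 9 lower and 27 not at all on day 10.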

How the results depend on the processing

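For BAP against mock at day 10, 4990 genes were called (1933 higher, 3057 lower). The total was 4992 with RLE size factors, 4832 with no low-count filter, 4032 with the 6 libraries alone, 5286 with DESeq2 and 4126 to 5099 without a single library (1545 to 2004 higher, 2581 to 3095 lower). TREAT called 1673 (582 higher, 1091 lower), an adjusted p below 0.01 left 1262 higher, and with no fold threshold, added after the data were seen, there were 11475 (5442 higher, 6033 lower). With the replicate number as a block 5078 were called. Deviations of same-numbered libraries had correlations of 0.25, 0.04 and -0.03 for numbers 1, 2 and 3. Those of unlike numbers ranged from -0.20 to 0.19. The numbers were not taken as a pairing.

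For the response on day 10 minus day 5, DESeq2 called 59 genes (31 higher, 28 lower), and 0 to 1 were called without a single library (0 higher, 0 to 1 lower). For day 15 minus day 10, 16 were called with no low-count filter (13 higher, 3 lower), 14 with the replicate block (12 and 2), 234 with DESeq2 (211 and 23), 0 at an adjusted p below 0.01 (0 and 0), and 0 to 134 without a single library (0 to 128 higher, 0 to 16 lower).

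With the 6 libraries alone, 2 cell division and 1 cytokinin members were called and the cytokinin median was -1.65, against 3.33 with DESeq2. In that fit 3 of the 5 cytokinin members were under the low-count filter. With no fold threshold 22 cell division and 103 ribosomal members were called. With no low-count filter the medians were -1.67 for laccases and 0.17 for pectin methyl esterases. Without a single library the called members were 3 to 5 for cell division, 5 to 15 for ribosomal genes, 9 to 15 for peroxidases and 11 to 17 for glutathione transferases. The medians were then 0.57 to 0.73 for cell division, 2.50 to 5.84 for cytokinin genes, -1.97 to -1.64 for laccases, 0.17 to 0.46 for pectin methyl esterases and 1.29 to 1.94 for peroxidases. The cause of the other changes was not tested. Depth limits the genes with few counts, whose ratios have wide intervals. The p-values measure the spread between these pooled libraries.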
